A study of Mus musculus with 15 samples.

Results

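The cytosolic ribosomal protein genes encode the protein part of the ribosome that translates nuclear messages, and 87 of the 32939 genes in the table were chosen as such. They are the genes whose mouse symbol begins with Rpl or Rps and a digit, together with Rplp0, Rplp1, Rplp2 and Rpsa. Of 303 symbols with that form, 9 kinase genes (Rps6k) and 203 pseudogene rows (-ps) were left out. A further 4 genes stayed below a mean of 1 CPM (counts scaled to a common library total) over all libraries. These were Rpl39l at 0.0143, Rpl3l at 0.0696, Rpl24 at 0.216 and Rpl32l at 0.641 CPM. Rpl24, which is named as a large-subunit gene, had 1 to 21 counts per library. The counting rule is not given, so this low row does not show that crypts lack its message. The genes just above the limit were Rpl36al at 1.31, Rps3a2 at 1.83 and Rps10 at 1.98 CPM. All 87 passed the filter on low counts. Of the 87, 45 are large-subunit genes (Rpl), 31 are small-subunit genes (Rps and Rpsa), and 11 are paralogs, retrogene copies or a binding partner.

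The study sequenced RNA of mouse colonic crypts, the epithelial pits that hold the intestinal stem cells, and asked how the state of the liver bears on them. There were 15 libraries of wild-type animals in 3 groups of 5. FL-shAlpl mice had a CDAA diet, a fatty liver and AAV-shAlpl. FL-shGFP mice had a CDAA diet, a fatty liver and AAV-shGFP. NL-shGFP mice had a normal diet, a normal liver and AAV-shGFP. CDAA is the usual name of a choline-deficient, L-amino-acid-defined feed, and Alpl encodes tissue-nonspecific alkaline phosphatase. All 3 groups carried an AAV that delivers a short hairpin RNA. The diet and the liver condition cannot be told apart, AAV-shAlpl was given only with a fatty liver, and the labels give neither the tissue the vector reached nor the age or sex of the mice.

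Each ribosome holds 1 copy of most of these proteins, assembled on ribosomal RNA in the nucleolus, so their genes are usually expressed in step. Their messages begin with a pyrimidine run, the 5′ terminal oligopyrimidine (TOP) sequence, through which mTORC1 and the RNA-binding protein LARP1 control how strongly they are translated. Transcription of many of them follows MYC. In the gut, ribosome production is high in the dividing cells at the crypt base and lower in the mature cells at the surface.

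Sequence around the annotated start is shown for a few members, because the TOP run is the feature the family is best known for. Each line is the sense strand from 15 bases before the annotated start to 15 bases from it on, from RefSeq (GRCm38.p6), with the longest pyrimidine run in capitals (the first of equal length).
Rplp2: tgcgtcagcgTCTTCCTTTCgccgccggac
Rps10: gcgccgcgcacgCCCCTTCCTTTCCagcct
Rpl28: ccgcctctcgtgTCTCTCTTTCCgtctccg
Rps24: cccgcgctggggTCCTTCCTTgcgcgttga
Rps6: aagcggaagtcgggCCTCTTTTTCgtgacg
Rpl35: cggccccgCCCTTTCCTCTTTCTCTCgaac
Rpl7l1: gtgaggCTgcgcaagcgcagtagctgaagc
The windows lie at chr7:141447636-141447665 on the plus strand (Rplp2), chr17:27635230-27635259 on the minus strand (Rps10), chr7:4792950-4792979 on the plus strand (Rpl28), chr14:24490663-24490692 on the plus strand (Rps24), chr4:86857353-86857382 on the minus strand (Rps6), chr2:39005117-39005146 on the minus strand (Rpl35) and chr17:46782642-46782671 on the minus strand (Rpl7l1). The first 6, which encode subunit proteins, are examples with a long run across the annotated start, and Rpl7l1, which encodes a relative of Rpl7 and is not a subunit protein, is an example without one, with no run longer than 2 bases. Run length in these windows did not divide subunit genes from paralogs. The longest run was 2 bases in the window of Rps3a1 and 3 bases in those of Rps15 and Rpl11, which encode subunit proteins. It was 10 bases in that of the paralog Rpl22l1. The windows rest on annotated starts, so a short run does not show that a message lacks a TOP start.

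Of the 87 genes, 63 had an entry in the RefSeq promoter table of 27025 genes. On the sense strand of the window, CTTTC stood in 27.0% of members and 4.76% of all genes in that table. The word CTTCC stood in 20.6% of members and 7.83% of all genes, CCTTT in 17.5% and 3.99%, and CTTTT in 9.52% and 3.68%. TTTCT stood in 4.76% of members and 5.21% of all genes. At least 1 of these 5 words, which can overlap, stood in 28 of the 63 members (44.4%), against 18.6% of all genes. In the 250 bases before the start, on either strand, CCGGAA, a core of ETS-family sites, was in 39.7% of members and 13.6% of all genes. AAGATGG, a core of YY1 sites, was in 7.94% of members and 5.18% of all genes. A gene was counted when any of its listed starts matched, and these are letters found in a window, not sites shown to work.

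Libraries held 33.3 M to 58.6 M counts. Mitochondrially encoded genes took 19.9% ± 4.03 of the counts in FL-shAlpl, 16.7% ± 3.32 in FL-shGFP and 33.2% ± 3.98 in NL-shGFP (SD, n = 5 each), and levels below are CPM scaled by TMM factors unless FPKM is named. Alpl itself was scarce, with 0 to 6 counts per library in FL-shAlpl, 14 to 25 in FL-shGFP and 0 to 2 in NL-shGFP. Epithelium was evident from goblet cell genes, whose 10 members summed to between 13154 and 53170.5 CPM in every library. That sum does not tell crypt from surface epithelium. NL-shGFP 3 and NL-shGFP 4 stood closest to each other, with a median chi-square per gene of 1.55. NL-shGFP 1 and NL-shGFP 2 followed at 2.64. Single counts that differ by sampling alone would give 0.455. Fragments seem to be counted more than once, as given under processing, which raises that value by an amount not computed here. The other pairs of that group lay between 4.0 and 13.5. These values do not show whether the close pairs are separate samples, and all 5 were kept.

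Members were among the most abundant messages per unit of length. Their median level was 173 FPKM, against 2.60 FPKM over all 17404 genes tested, and their median length implied by the FPKM values was 1734 nt, against 3733 nt. The highest mean FPKM over the 15 libraries belonged to Rplp1 (2399), a stalk protein, followed by Rplp0 (1168), the base of the same stalk, Rps15 (846) of the small-subunit head, Rps3a1 (773) of the small subunit, and Rpl41 (763), the smallest ribosomal protein. The lowest mean FPKM belonged to Rpl22l1 (13.8), a paralog of Rpl22, then Rpl13a (5.15), a large-subunit protein, Rps3a2 (2.31), a copy of Rps3a1, Rpl36al (0.965), a paralog of Rpl36a, and Rps10 (0.858), a small-subunit protein. The values of Rps10 and Rpl13a do not reach those of other subunit genes, and for Rps10 most reads lay in pseudogene rows, as described further on. Near-identical copies are common in this family and the counting rule is not given in the sources used here, so the split of reads between a gene and its copies is uncertain.

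In crypts of FL-shGFP mice the members took, on average, a smaller part of the RNA than in the other groups. Their summed level was 46098, 33737, 34665, 50801 and 32287 CPM in FL-shAlpl libraries 1 to 5, 21070.0, 23721, 29630.1, 14616 and 34674 CPM in FL-shGFP libraries 1 to 5, and 32755, 37645, 35782, 36394 and 38182 CPM in NL-shGFP libraries 1 to 5. FL-shGFP libraries 1 to 4 lay below every library of the other groups, while FL-shGFP 5 lay within both. FL-shAlpl 1 and FL-shAlpl 4 lay above all others. The NL-shGFP libraries were close together and the fatty-liver libraries were spread out.

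FL-shGFP 4 was the lowest of the 15 libraries for 80 of the 87 members. FL-shAlpl 4 was the highest for 53 members and FL-shAlpl 1 for 25. As a part of all raw counts, the members made up 4.19% ± 1.06 in FL-shAlpl, 2.51% ± 0.980 in FL-shGFP and 3.47% ± 0.371 in NL-shGFP (SD, n = 5 each). With mitochondrially encoded genes left out of the total, the shares were 5.22% ± 1.24 in FL-shAlpl, 3.01% ± 1.2 in FL-shGFP and 5.19% ± 0.345 in NL-shGFP. Fewer cells of a type with high ribosomal protein expression and less of these messages per cell cannot be told apart in bulk RNA.

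**Figure D1:**
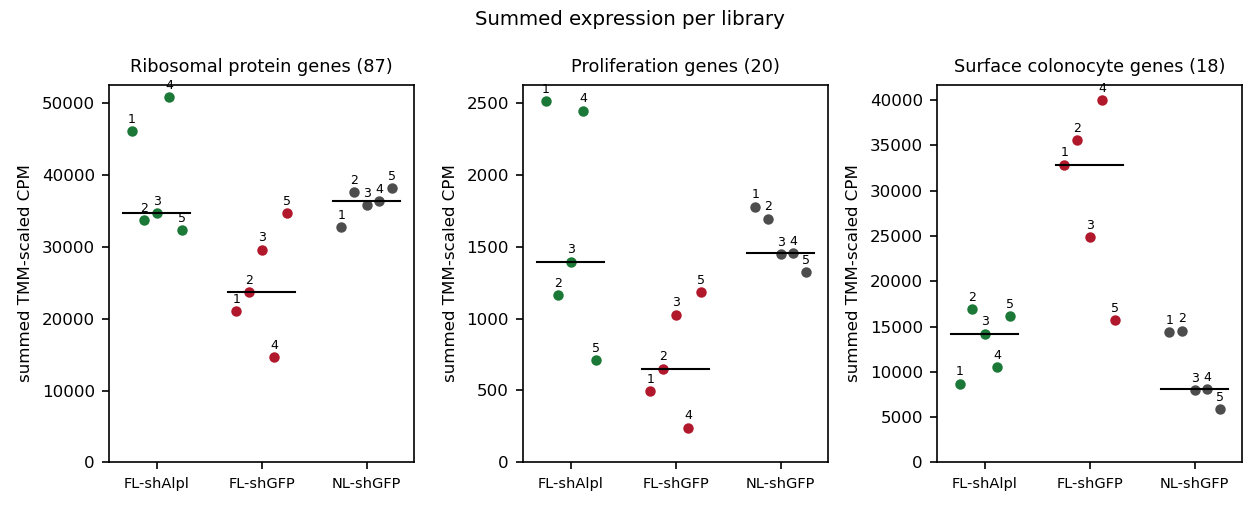
Summed TMM-scaled CPM per library of the 87 ribosomal protein genes, 20 proliferation genes and 18 surface colonocyte genes, by group. Each point is 1 library with its replicate number and each bar is the group median. FL-shGFP 4 has the lowest ribosomal protein sum (14616), the lowest proliferation sum (242) and the highest surface colonocyte sum (40023).

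Fatty liver with the control hairpin was first set against normal liver, which asks what the CDAA diet and fatty liver together do to the crypts. In FL-shGFP, 51 of the 87 members (58.6%) fell relative to NL-shGFP and 0 rose, in an edgeR quasi-likelihood test two-sided over all 17404 genes at an adjusted p of 0.05. Over all genes tested, 21.6% fell and 25.1% rose. The median log2 fold change of the members was -0.54, against -0.00 over all genes, and 86 of 87 lay below 0, as did 50.1% of all genes. Under every other scaling tried it lay below 0 too, except for scaling to the ribosomal protein sum itself, where it was 0.02 and the median of all genes moved to 0.66. In 18 members every FL-shGFP library lay below every NL-shGFP library, as in 16.2% of all genes.

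Small-subunit genes (20 of 31 fell, median -0.57) and large-subunit genes (26 of 45 fell, median -0.53) had medians close to each other. Of the 11 paralogs, copies and partners, 5 fell and their median was -0.47. Of 19 members whose human counterparts are mutated in Diamond-Blackfan anaemia, an inherited failure of red cell production, 12 fell, with a median of -0.55. From here on, a number with ± beside a gene is its log2 fold change with the standard error, and adjusted p-values are those of edgeR.

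Rplp2, a protein of the stalk that recruits elongation factors, stood at 177, 215, 232, 104 and 287 CPM in FL-shGFP libraries 1 to 5, against 342, 389, 424, 436 and 409 CPM in NL-shGFP libraries 1 to 5. All FL-shGFP libraries lay below all NL-shGFP libraries. It fell by 0.98 ± 0.22 on the log2 scale (edgeR adjusted p = 0.00239), the smallest p among the members. The other stalk genes did not pass: Rplp0 was at -0.56 ± 0.23 (edgeR adjusted p = 0.0549) and Rplp1 at -0.50 ± 0.25 (edgeR adjusted p = 0.110).

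Rpl13a, which in human cells can leave the large subunit and silence inflammatory messages, had 4.03, 4.91, 6.25, 3.72 and 8.72 CPM in FL-shGFP, against 13.1, 15.4, 14.3, 16.3 and 15.2 CPM in NL-shGFP. The groups did not overlap, and its fold change was the largest among members, at -1.42 ± 0.33 (edgeR adjusted p = 0.00328). Its level lay far below that of most subunit genes, and its -ps row averaged only 0.025 CPM. How much of its message this row holds is therefore uncertain. Rps24, a small-subunit gene of Diamond-Blackfan anaemia, had 434, 438, 608, 326 and 737 CPM in FL-shGFP, against 776, 889, 848, 868 and 905 CPM in NL-shGFP. It fell without overlap (-0.75 ± 0.19, edgeR adjusted p = 0.00520). Rpl29, a large-subunit protein also described as heparin-binding, had 102, 96.4, 129, 82.1 and 144 CPM in FL-shGFP, against 145, 173, 164, 177 and 162 CPM in NL-shGFP. Its highest FL-shGFP library came just under its lowest NL-shGFP library (-0.57 ± 0.16, edgeR adjusted p = 0.00861).

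The other members with the smallest p-values were Rpl7l1, which has a yeast relative in large-subunit assembly (-0.57 ± 0.14), Rps10, whose human protein is marked with ubiquitin on collided ribosomes (-1.13 ± 0.28), the small-subunit protein Rps21 (-0.78 ± 0.20), the large-subunit protein Rpl28 (-0.67 ± 0.19), Rps15 (-0.63 ± 0.18) and the large-subunit protein Rpl9 (-0.40 ± 0.11). Their edgeR adjusted p-values ran from 0.00352 to 0.00974. Rps6, the substrate of the S6 kinases, fell by 0.56 ± 0.20 (edgeR adjusted p = 0.0281). Rpl5, which carries 5S ribosomal RNA and can bind Mdm2, fell by 0.59 ± 0.21 (edgeR adjusted p = 0.0295), while its partner Rpl11 was at -0.43 ± 0.18 (edgeR adjusted p = 0.0579). Rps19, the gene most often mutated in Diamond-Blackfan anaemia, and Rps26, at the exit of the messenger channel, fell by 0.69 ± 0.24 and 0.76 ± 0.22 (edgeR adjusted p = 0.0303 and 0.0107). Rpsa, also known as a laminin receptor, was at -0.54 ± 0.25 (edgeR adjusted p = 0.0860).

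The 1 member with a fold change above 0 was Rps4l, a copy of the X-linked Rps4x. It had 14.1, 29.99, 16.0, 13.9 and 16.3 CPM in FL-shGFP, against 13.6, 15.6, 13.7, 13.3 and 14.6 CPM in NL-shGFP, with FL-shGFP 2 far above the rest. Its fold change of 0.35 ± 0.22 did not pass (edgeR adjusted p = 0.206).

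The count of members that fell depended on single libraries. It was 23 without FL-shGFP 1, 28 without FL-shGFP 2, 28 without FL-shGFP 4, all with a median below 0, 9 when libraries were scaled by their totals alone, and 19 when the close NL-shGFP pairs were summed.

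**Figure D2:**
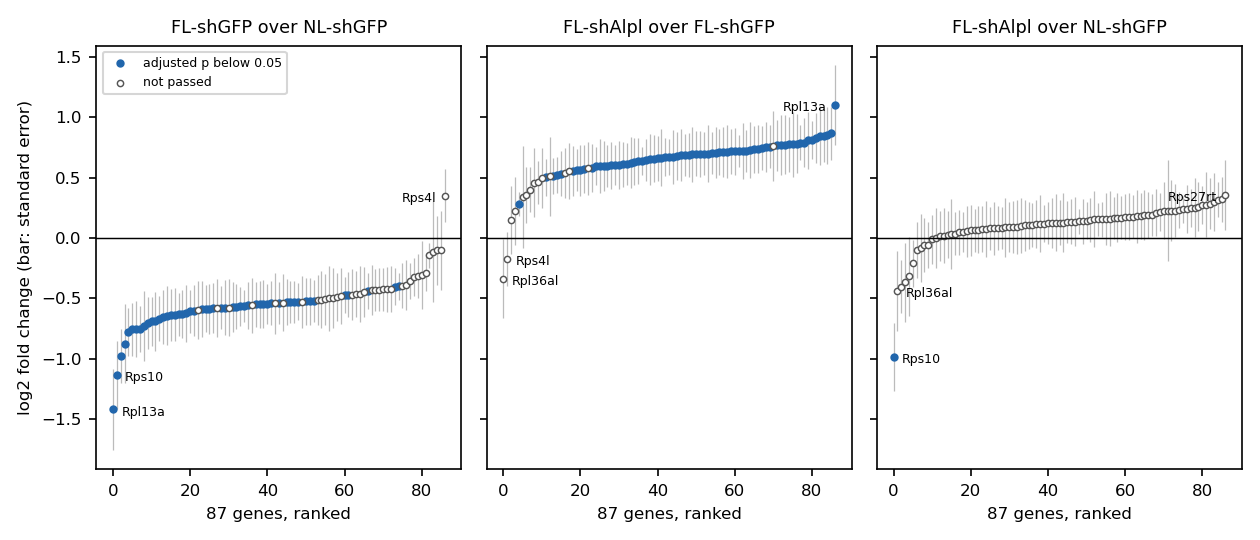
Log2 fold changes of the 87 ribosomal protein genes, ranked within each of 3 comparisons, with standard errors as bars and filled points for an edgeR adjusted p below 0.05. Nearly all values lie below 0 for FL-shGFP over NL-shGFP (51 passed), above 0 for FL-shAlpl over FL-shGFP (72 passed) and near 0 for FL-shAlpl over NL-shGFP (1 passed), with TMM factors. Scaled to the ribosomal protein sum, the medians of the first 2 comparisons become 0.02 and -0.01.

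FL-shAlpl was set against FL-shGFP, which asks what the Alpl hairpin does in mice with a fatty liver. In FL-shAlpl, 72 of 87 members (82.8%) rose relative to FL-shGFP and 0 fell (edgeR, adjusted p below 0.05), where 18.0% of all genes rose and 17.9% fell. The median log2 fold change was 0.67, against -0.00 over all genes, and 85 of 87 lay above 0, as did 49.7% of all genes. It stayed above 0 under the other scalings tried, except for scaling to the ribosomal protein sum, where it was -0.01 and the median of all genes moved to -0.75. In 14 members every FL-shAlpl library lay above every FL-shGFP library, as in 7.63% of all genes. This comparison shares its FL-shGFP libraries with the one before, so a low FL-shGFP library enters both.

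Of the small-subunit genes 26 of 31 rose (median 0.70), of the large-subunit genes 40 of 45 (median 0.68), and of the paralogs, copies and partners 6 of 11 (median 0.55). Of the Diamond-Blackfan genes 16 of 19 rose. Rpl9 had the smallest p. It stood at 329, 276, 270.2, 274 and 279.5 CPM in FL-shAlpl, against 160.3, 184, 195, 146 and 231 CPM in FL-shGFP, with no overlap, and rose by 0.64 ± 0.11 (edgeR adjusted p = 0.00102). Rps19bp1, a binding partner of Rps19 that also activates the deacetylase SIRT1 in human cells, had 23.1, 15.5, 16.8, 23.3 and 16.0 CPM in FL-shAlpl, against 9.87, 10.8, 11.1, 10.4 and 12.4 CPM in FL-shGFP. It rose without overlap (0.79 ± 0.15, edgeR adjusted p = 0.00135).

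Rpl7l1 had 88.4, 63.0, 70.7, 78.1 and 56.1 CPM in FL-shAlpl, against 36.9, 50.5, 44.9, 35.2 and 48.9 CPM in FL-shGFP. Its groups did not overlap (0.72 ± 0.14, edgeR adjusted p = 0.00139). Rpl29 had 231, 161, 179, 245 and 158 CPM in FL-shAlpl, all above its FL-shGFP values given earlier (0.82 ± 0.16, edgeR adjusted p = 0.00168). The next by p were Rpl23a, at the exit of the nascent chain tunnel (0.67 ± 0.15), the large-subunit protein Rpl7 (0.67 ± 0.16), Rpl22, needed for T-cell development in mice (0.75 ± 0.18), the large-subunit proteins Rpl27 (0.72 ± 0.17) and Rpl13 (0.83 ± 0.21), and Rpl35, also at the tunnel exit (0.74 ± 0.19). Their edgeR adjusted p-values ran from 0.00376 to 0.00697.

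Rps6 had 919, 610.5, 704, 894 and 627 CPM in FL-shAlpl, against 404, 388, 568, 275 and 622 CPM in FL-shGFP. Only FL-shGFP 5 reached into the FL-shAlpl range (0.73 ± 0.20, edgeR adjusted p = 0.00987). Rplp0 had 2428, 1779, 1983, 3294 and 1974 CPM in FL-shAlpl, against 1205, 1282, 1823, 744 and 1902 CPM in FL-shGFP, overlapping through FL-shGFP 3 and FL-shGFP 5 (0.72 ± 0.23, edgeR adjusted p = 0.0234). Rplp1 at 0.50 ± 0.25 and Rplp2 at 0.58 ± 0.22 did not pass (edgeR adjusted p = 0.128 and 0.0507). Rpl5 and Rpl11 both rose, by 0.71 ± 0.21 and 0.60 ± 0.18 (edgeR adjusted p = 0.0156 and 0.0172).

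Rpl13a had 19.2, 7.14, 8.78, 19.1 and 5.24 CPM in FL-shAlpl, with FL-shAlpl 1 and FL-shAlpl 4 far above the other 3, against 3.72 to 8.72 CPM in FL-shGFP (1.10 ± 0.33, edgeR adjusted p = 0.0188). The members with a fold change below 0, neither of which passed, were Rpl36al (-0.34 ± 0.33, edgeR adjusted p = 0.441) and Rps4l (-0.17 ± 0.22, edgeR adjusted p = 0.567). The value of Rps4l turned to 0.09 without FL-shGFP 2. The count of members that rose was 47 without FL-shAlpl 1, 45 without FL-shAlpl 4 and 44 without FL-shGFP 1, and 35 when the 2 groups alone were fitted, each with 0 that fell.

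**Figure D3:**
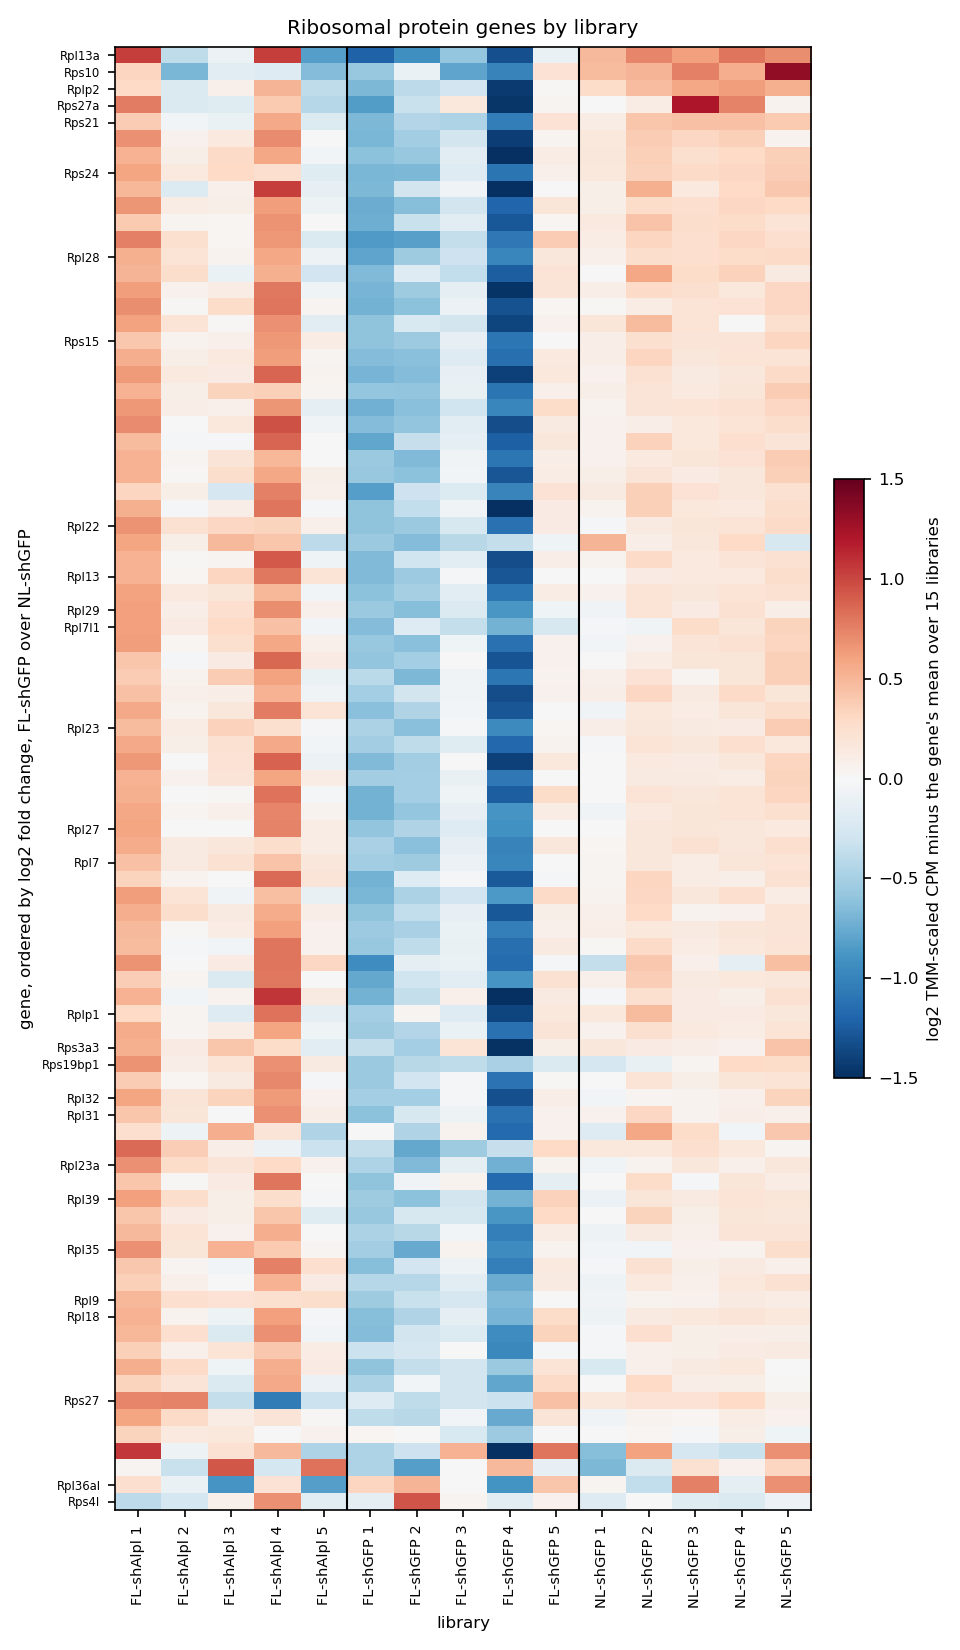
Log2 TMM-scaled CPM of the 87 ribosomal protein genes in 15 libraries, minus each gene's mean, with genes (some of them labelled) ordered by the fold change of FL-shGFP over NL-shGFP. The column of FL-shGFP 4 is the lowest for 80 genes and that of FL-shAlpl 4 the highest for 53. Colours end at 1.5 in either direction, which 4 of 1305 values exceed.

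FL-shAlpl was also set against NL-shGFP, where diet, liver condition and hairpin all differ. Of the 87 members 0 rose and 1 fell, while 9.31% of all genes rose and 8.12% fell (edgeR, adjusted p below 0.05). The median log2 fold change of the members was 0.13, against 0.05 over all genes, and scaling by totals alone moved these to 0.27 and 0.19. Above 0 lay 76 of the 87 members and 55.4% of all genes. A p that misses the threshold does not show that the levels were equal. Among the members with the smallest p and a fold change above 0 were Rps19bp1 (0.32 ± 0.15), Rpl9 (0.24 ± 0.11), Rpl35 (0.32 ± 0.18) and Rpl29 (0.25 ± 0.16), with edgeR adjusted p-values from 0.151 to 0.307. Rpl9 was the only member whose FL-shAlpl libraries (270.2 to 329 CPM) all lay above its NL-shGFP libraries (225 to 255 CPM), which 7.54% of all genes showed.

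The 1 member that passed was Rps10. It had 2.23, 1.11, 1.59, 1.56 and 1.14 CPM in FL-shAlpl, 1.21, 1.66, 1.03, 0.893 and 2.07 CPM in FL-shGFP and 2.49, 2.54, 3.01, 2.60 and 4.49 CPM in NL-shGFP. Both fatty-liver groups lay below every NL-shGFP library (in FL-shAlpl, 7.01% of all genes did so), and it fell by 0.98 ± 0.28 in FL-shAlpl relative to NL-shGFP (edgeR adjusted p = 0.0248). The call was lost without FL-shAlpl 2, FL-shAlpl 5 or NL-shGFP 5 (edgeR adjusted p = 0.0574, 0.0617 and 0.0687). The row named Rps10 held far fewer reads than the 3 rows named as its pseudogenes, which together held 73.2 to 119.9 CPM in FL-shAlpl, 35.5 to 83.7 CPM in FL-shGFP and 69.9 to 80.3 CPM in NL-shGFP. With those rows added to the gene, a choice made after seeing the data, Rps10 stood at 0.24 ± 0.20 in FL-shAlpl over NL-shGFP (edgeR adjusted p = 0.428), for FL-shGFP over NL-shGFP at -0.43 ± 0.20 (edgeR adjusted p = 0.0840) and at 0.67 ± 0.20 in FL-shAlpl over FL-shGFP (edgeR adjusted p = 0.0160). The medians of the family, without those rows added, were 0.13, -0.54 and 0.67 in the same order.

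Among the other members nearest to a fall in FL-shAlpl relative to NL-shGFP, Rplp2 was at -0.40 ± 0.22, Rps27a, which is made as a fusion with ubiquitin, at -0.37 ± 0.33, Rpl36al at -0.44 ± 0.33 and Rps21 at -0.21 ± 0.20 (edgeR adjusted p = 0.221, 0.479, 0.394 and 0.504). Rplp2 had 349, 244, 298, 404 and 218 CPM in FL-shAlpl, so that 3 of its 5 libraries lay below the lowest NL-shGFP library (342 CPM). The other stalk genes stood nearer to 0: Rplp0 was at 0.16 ± 0.23 and Rplp1 at 0.00 ± 0.25 in FL-shAlpl over NL-shGFP (edgeR adjusted p = 0.682 and 0.999).

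Within the family, levels moved together from library to library. The SD over 15 libraries of a member's log2 level had a median of 0.45, while that of its log2 share of the ribosomal protein sum had a median of 0.14, and the share varied less than the level in 82 of 87 members. In 63 members the SD of the share was below 0.2. The members whose share varied most, chosen after their values were seen, were Rps27rt (0.66), Rpl36al (0.59), Rps27 (0.59), Rps4l (0.57), Rps10 (0.56), Rpl13a (0.50) and Rpl17 (0.48), where Rps27 and Rpl17 are subunit proteins of the small and the large subunit. Shares within a sum are bound to each other, so these SDs are a description.

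**Figure D4:**
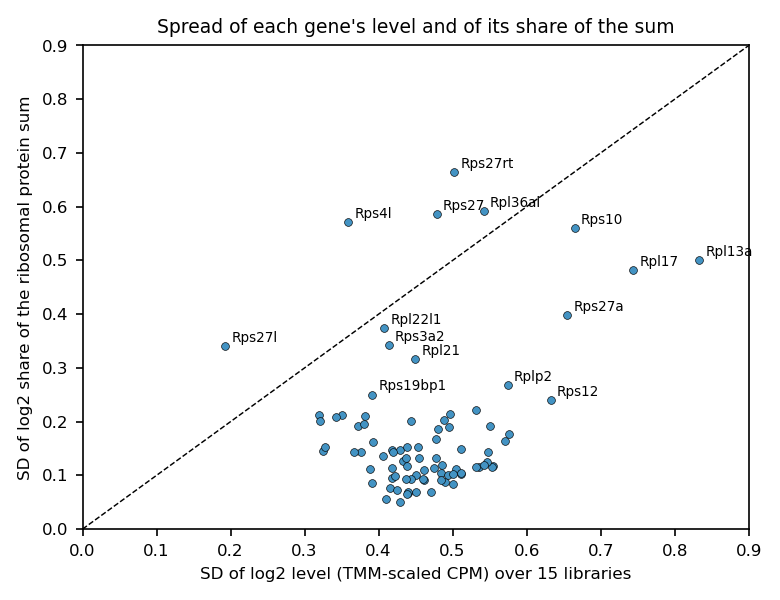
For each of the 87 genes, the SD over 15 libraries of its log2 TMM-scaled CPM (x axis) and of the log2 of its share of the ribosomal protein sum (y axis). Most genes lie far below the dashed line of equal SD, with 63 genes below 0.2 on the y axis, and Rps27rt, Rps27, Rpl36al, Rps4l and Rps27l lie above that line.

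Scaled to the ribosomal protein sum, few members stood out. On this scale the median of all genes moved up in FL-shGFP over NL-shGFP and down in FL-shAlpl over FL-shGFP, as given earlier. A gene whose own level does not follow the family therefore rises or falls in share. With TMM factors, neither Rps4l nor Rps27l passed in the first of these comparisons, and neither Rps4l nor Rpl36al in the second. In FL-shGFP relative to NL-shGFP, Rps4l (0.99 ± 0.25, edgeR adjusted p = 0.00427) and Rps27l, a paralog of Rps27 that p53 induces in human cells (0.48 ± 0.19, edgeR adjusted p = 0.0423), rose in share. Rpl13a (-0.88 ± 0.22, edgeR adjusted p = 0.00448), with few reads as given earlier, and Rplp2 (-0.44 ± 0.15, edgeR adjusted p = 0.02) fell in share. In FL-shAlpl relative to FL-shGFP, Rps4l (-0.93 ± 0.25, edgeR adjusted p = 0.00654) and Rpl36al (-1.06 ± 0.30, edgeR adjusted p = 0.0101) fell in share. In FL-shAlpl relative to NL-shGFP, Rps10 (-1.11 ± 0.26, edgeR adjusted p = 0.0191) and Rplp2 (-0.54 ± 0.15, edgeR adjusted p = 0.0399) fell in share. Rplp2 therefore passed in both fatty-liver groups against normal liver on this scale.

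Ratios of a paralog to its partner within a library do not depend on scaling. The log2 ratio of Rps4l to Rps4x had a median of -4.80 in FL-shGFP and -5.63 in NL-shGFP, and the lowest FL-shGFP library (-5.39) lay just above the highest NL-shGFP library (-5.60). In that comparison Rps4x fell by 0.63 ± 0.20 (edgeR adjusted p = 0.0161), while Rps4l did not pass. The log2 ratio of Rpl36al to Rpl36a had a median of -7.92 in FL-shAlpl and -6.82 in FL-shGFP, and the groups did not overlap. There Rpl36a rose by 0.78 ± 0.23 (edgeR adjusted p = 0.0170), while Rpl36al did not pass. Rpl36al was at 0.655 to 2.06 CPM per library, so few molecules stand behind its ratio. The ratios of Rpl22l1 to Rpl22, Rps27l to Rps27, Rps27rt to Rps27 and Rpl7l1 to Rpl7 overlapped between groups in each comparison. Rpl10l was not analysed here, and Rpl39l and Rpl3l had at most 6 and 8 counts in a library.

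Rps27, whose mammalian paralog Rps27l can replace it in the ribosome, and the copy Rps27rt went different ways between libraries. Rps27 had 302, 304, 142, 87.4 and 145 CPM in FL-shAlpl, 159, 139.6, 149, 146 and 247 CPM in FL-shGFP, and 203, 211, 211, 223 and 193 CPM in NL-shGFP. Rps27rt had 44.3, 34.2, 82.3, 35.8 and 75.9 CPM in FL-shAlpl, 31.2, 24.3, 43.0, 60.3 and 39.5 CPM in FL-shGFP, and 27.0, 37.0, 50.2, 44.9 and 53.9 CPM in NL-shGFP. FL-shAlpl 1 and FL-shAlpl 2 were high for Rps27 and FL-shAlpl 3 and FL-shAlpl 5 were high for Rps27rt. The start windows of the pair are shown because they share 14 bases, in capitals, on the same RefSeq build.
Rps27: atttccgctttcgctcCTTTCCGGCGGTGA
Rps27rt: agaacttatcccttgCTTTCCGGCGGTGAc
They lie at chr3:90213634-90213663 and chr9:114982725-114982754, both on the minus strand. Reads that fit both copies can be assigned to either, so the split between these rows is uncertain.

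Over the whole family, pseudogene rows held few reads. The 212 -ps rows, copies of Rplp and Rpsa genes included, summed to between 1.77% and 2.48% of the members' CPM per library. Besides Rps10, the rows weighed most for Rpl17, where they averaged 91.1 CPM beside 176 CPM for the gene (51.7%), Rpl21 (38.0%) and Rpl14 (33.1%), all of the large subunit and chosen after their values were seen. With these rows added, Rpl17 was at -0.36 ± 0.26 in FL-shGFP over NL-shGFP and at 0.59 ± 0.26 in FL-shAlpl over FL-shGFP (edgeR adjusted p = 0.267 and 0.0842).

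Other genes of the translation machinery were read beside the share of all tested genes, of which 21.6% fell and 25.1% rose in FL-shGFP relative to NL-shGFP, and 18.0% rose and 17.9% fell in FL-shAlpl relative to FL-shGFP. Rack1, a small-subunit protein that the naming rule misses, fell by 0.70 ± 0.23 in FL-shGFP relative to NL-shGFP and rose by 0.71 ± 0.23 in FL-shAlpl relative to FL-shGFP (edgeR adjusted p = 0.0225 and 0.0272). Fau, which encodes another, was at -0.19 ± 0.11 in the first and rose by 0.40 ± 0.11 in the second (edgeR adjusted p = 0.153 and 0.0109). Mitochondrial ribosomal proteins, which serve the ribosome inside mitochondria, changed in similar proportions: 51 of 77 (66.2%) fell in FL-shGFP relative to NL-shGFP with a median of -0.46, and 63 of 77 (81.8%) rose in FL-shAlpl relative to FL-shGFP with a median of 0.56. Their groups were without overlap in 45 of 77 genes in the first comparison and 41 in the second, against 18 and 14 of 87 for the cytosolic family. Of all genes, 16.2% lay below without overlap in the first and 7.63% above in the second. The 77 mitochondrial ribosomal protein genes had 0 calls in FL-shAlpl over NL-shGFP, where 9.31% of all genes rose and 8.12% fell.

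Of 17 other TOP messages, 6 (35.3%, beside 21.6% of all genes) fell in FL-shGFP relative to NL-shGFP (median -0.41) and 15 rose in FL-shAlpl relative to FL-shGFP (median 0.57). Among them Eef1d, an exchange factor for the elongation factor, fell by 0.84 ± 0.18 and rose by 0.84 ± 0.18 (edgeR adjusted p = 0.00165 and 0.00274). Of 9 elongation and termination factors, 5 of them also on the TOP list, 7 fell and 8 rose (medians -0.60 and 0.67). Of 8 host RNAs of small nucleolar RNAs with a TOP start, 6 fell and 3 rose (medians -0.89 and 0.63). Of 35 initiation factors, 12 (34.3%, beside 21.6% of all genes) fell and 3 rose in FL-shGFP relative to NL-shGFP, and 24 rose and 2 fell in FL-shAlpl relative to FL-shGFP. Eif2s2, a subunit of the factor that brings the initiator tRNA, went against the 12 that fell and rose by 1.87 ± 0.28 in FL-shGFP relative to NL-shGFP (edgeR adjusted p = 0.000131), as it did in FL-shAlpl relative to NL-shGFP (1.38 ± 0.27, edgeR adjusted p = 0.00352). Eif6, which keeps free large subunits from joining, also rose in FL-shGFP relative to NL-shGFP, by 0.69 ± 0.12 (edgeR adjusted p = 0.000429), and Eif5 by 0.28 ± 0.10 (edgeR adjusted p = 0.040).

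Ribosome biogenesis factors had medians further from 0 than the ribosomal proteins. Of 21, 16 (76.2%) fell in FL-shGFP relative to NL-shGFP (median -0.81), beside 21.6% of all genes. In FL-shAlpl relative to FL-shGFP 21 rose (median 0.95), beside 18.0% of all genes. They had 0 calls in FL-shAlpl over NL-shGFP, where 9.31% of all genes rose and 8.12% fell. Polr1b, the second subunit of RNA polymerase I, fell by 1.22 ± 0.25 and rose by 1.17 ± 0.25 (edgeR adjusted p = 0.00121 and 0.00267). Grwd1, a chaperone of Rpl3 in human cells, fell by 1.40 ± 0.32 and rose by 1.52 ± 0.32 (edgeR adjusted p = 0.00241 and 0.00251), and Tsr2, the chaperone of Rps26, fell by 0.65 ± 0.19 and rose by 0.87 ± 0.19 (edgeR adjusted p = 0.0135 and 0.00386). Of 14 regulators of TOP messages and ribosome supply, 3 fell (21.4%, close to the 21.6% of all genes) and 1 rose in the first comparison, and 4 rose and 1 fell in the second, with medians of 0.01 and 0.15. Those that fell in the first were Myc, Larp1 and Larp4, and Tsc1 rose. Myc fell by 1.81 ± 0.21 and rose by 1.70 ± 0.21 (edgeR adjusted p = 2.23e-05 and 8.75e-05), and Larp1, which binds TOP starts, fell by 0.69 ± 0.13 and rose by 0.60 ± 0.13 (edgeR adjusted p = 0.000800 and 0.00348). Mtor was at 0.19 ± 0.09 and 0.11 ± 0.09 (edgeR adjusted p = 0.112 and 0.393). Of 8 p53 targets, a pathway that unbound Rpl5 and Rpl11 can switch on, 4 rose and 2 fell in FL-shGFP relative to NL-shGFP. Their median was 0.03, and 25.1% of all genes rose and 21.6% fell. Cdkn1a was among those that rose (1.22 ± 0.33, edgeR adjusted p = 0.00784), and Eda2r (-1.85 ± 0.35, edgeR adjusted p = 0.000722) and Ccng1 (-0.24 ± 0.08, edgeR adjusted p = 0.0244) fell. In FL-shAlpl relative to FL-shGFP 2 p53 targets rose and 4 fell, beside 18.0% and 17.9% of all genes. These lists were described by counts alone.

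**Figure D5:**
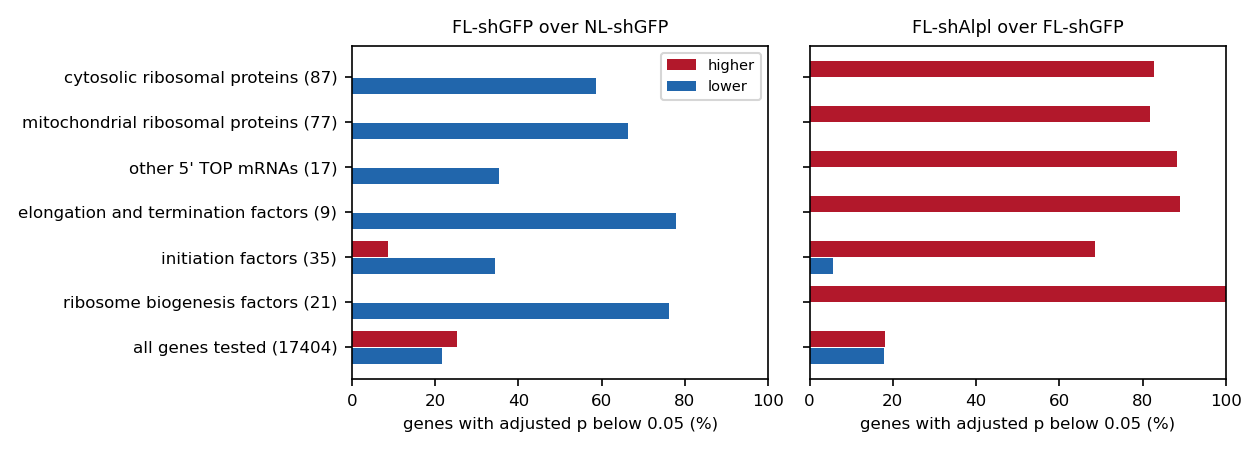
Percent of genes with an edgeR adjusted p below 0.05 that were higher (red) or lower (blue), for 6 gene lists and all 17404 genes tested, with list sizes in parentheses, in FL-shGFP over NL-shGFP (left) and FL-shAlpl over FL-shGFP (right), on TMM scaling. The lists of TOP messages, elongation factors and initiation factors share genes. Cytosolic ribosomal proteins (58.6% lower, then 82.8% higher) lie near mitochondrial ribosomal proteins (66.2% lower, then 81.8% higher).

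Markers of cell state and of other cell types differed between the same groups. The marker counts stand beside shares over all tested genes of 25.1% that rose and 21.6% that fell in FL-shGFP relative to NL-shGFP, and 18.0% that rose and 17.9% that fell in FL-shAlpl relative to FL-shGFP. Of 20 proliferation genes, 13 fell in FL-shGFP relative to NL-shGFP and 12 rose in FL-shAlpl relative to FL-shGFP, and their summed level was 711 to 2514 CPM in FL-shAlpl, 242 to 1185 CPM in FL-shGFP and 1324 to 1778 CPM in NL-shGFP. Of 15 stem cell genes, 13 fell and 1 rose in FL-shGFP relative to NL-shGFP, and 11 rose and 1 fell in FL-shAlpl relative to FL-shGFP. Of 18 surface colonocyte genes, 15 rose in FL-shGFP relative to NL-shGFP and 13 fell in FL-shAlpl relative to FL-shGFP. Their sums were 8682 to 16936 CPM in FL-shAlpl, 15707 to 40023 CPM in FL-shGFP and 5867 to 14551 CPM in NL-shGFP. Of 10 goblet genes, 4 rose and 3 fell in FL-shGFP relative to NL-shGFP, and 1 rose and 3 fell in FL-shAlpl relative to FL-shGFP. In FL-shAlpl relative to NL-shGFP, 9.31% of all genes rose and 8.12% fell. There 0 proliferation genes passed, 4 stem cell genes fell and 0 rose. Of the other lists, 6 surface colonocyte genes rose and 2 fell, and 5 goblet genes rose and 5 fell. FL-shGFP 4, lowest in ribosomal proteins, was lowest in proliferation genes and highest in colonocyte genes. FL-shGFP 5, highest of its group in ribosomal proteins, was highest of its group in proliferation genes and lowest in colonocyte genes. Not every library followed this order. FL-shAlpl 5 was below FL-shGFP 3 in proliferation genes (711 and 1028 CPM) but above it in ribosomal proteins (32287 and 29630.1 CPM). FL-shGFP 2 was above FL-shGFP 1 in ribosomal proteins (23721 and 21070.0 CPM) and also in colonocyte genes (35551 and 32869 CPM).

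Of 13 T and NK cell genes, 12 rose in FL-shGFP relative to NL-shGFP and 13 fell in FL-shAlpl relative to FL-shGFP, with sums of 27.1 to 60.0 CPM in FL-shAlpl, 134 to 328 CPM in FL-shGFP and 31.6 to 105 CPM in NL-shGFP. B and plasma cell genes (8, of which 7 could be tested and Mzb1 stayed at or below 0.840 CPM) summed to 16.4 to 131 CPM in FL-shAlpl, 102 to 383 CPM in FL-shGFP and 6.51 to 22.3 CPM in NL-shGFP, with 4 that rose in the first comparison and 2 that fell in the second. Of 10 myeloid genes, 6 rose in FL-shGFP relative to NL-shGFP and 5 fell in FL-shAlpl relative to FL-shGFP, with sums of 148 to 386 CPM in FL-shAlpl, 374 to 1137 CPM in FL-shGFP and 169 to 413 CPM in NL-shGFP. Of 8 fibroblast genes, 4 rose in FL-shGFP relative to NL-shGFP and 0 changed in FL-shAlpl relative to FL-shGFP. Smooth muscle, endothelial and enteric glia genes summed to at most 23.9, 11.7 and 2.82 CPM in any library. Of the genes of these lists that could be tested, 5 of 6, 4 of 5 and 2 of 3 rose in FL-shGFP relative to NL-shGFP. In FL-shAlpl relative to FL-shGFP, 4, 2 and 0 fell. In FL-shAlpl relative to NL-shGFP, where 9.31% of all genes rose and 8.12% fell, 1 T and NK cell gene rose and 4 fell. B and plasma cell genes had 2 that rose, fibroblast genes 2, and myeloid, endothelial and enteric glia genes 1 each. Smooth muscle genes had 0, and apart from the T and NK cell list 0 of these genes fell. The part that the mix of cell types has in the ribosomal protein values was not tested. Without the mitochondrially encoded genes, 59 ribosomal protein genes fell in FL-shGFP relative to NL-shGFP and 74 rose in FL-shAlpl relative to FL-shGFP, and without FL-shGFP 4 these counts were 28 and 53.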

How the data were processed

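RNA-seq of mouse colonic crypts was analysed from 2 tables of 15 libraries, in which every value column was matched to a labelled sample (0 others). The deposited integer read counts per gene were used for all tests and the deposited FPKM values for levels per length. HISAT2 is named in the submitters' processing notes, and its version, the counting tool, strand setting, annotation and genome build were not given in the sources used here. RNA had been purified on columns and then enriched for mRNA, per the labels' protocols. Counts from 1 to 12 were even in 72.4% to 77.2% of cases per library, so 1 fragment seems to be counted as 2. Symbols were matched for 32241 of 32939 gene IDs.

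One edgeR 4.0.16 quasi-likelihood model (R 4.3.3, robust, TMM factors, with group means) was run on the 17404 genes that passed filterByExpr, leaving 15535 untested, with a common biological coefficient of variation of 30.2%. Tests were two-sided with Benjamini-Hochberg adjustment over all genes tested at 0.05. A standard error is the absolute log2 fold change over the square root of F. The code was tested on simulated data. Total counts ran from 33.3 M to 58.6 M, so the spread between libraries, not depth, limits the members at high levels. How far depth limits the lowest members was not tested. Whether replicates are separate animals is not in the labels, so p-values measure the spread between these samples, which may be technical.

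The members and gene lists were chosen with earlier results of these data known. Named members are the 10 with the smallest adjusted p per direction and comparison (the 5 with the smallest p where fewer than 5 passed), the 5 highest and 5 lowest by FPKM, paralog pairs, a fixed set (Rplp0, Rplp1, Rplp2, Rpsa, Rpl5, Rpl11, Rps6, Rps19 and Rps26) and members with an outlying library. Some members are given by counts alone, and a few results are not reported here. The alternatives tried were upper-quartile and RLE factors, totals alone, the ribosomal protein sum as the scale, other filters, DESeq2 1.42.0, voom with quality weights and limma-trend on log2(FPKM + 1) (limma 3.58.1), no mitochondrially encoded genes, a replicate block, each library left out, only the 2 groups compared, close NL-shGFP libraries summed and, chosen after seeing the data, pseudogene rows added to their genes. Start windows came from RefSeq promoters of GRCm38.p6. Figures were drawn with Python 3.11.15 and matplotlib 3.10.9.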

Additional observations from a re-analysis of the deposited data

Results flagged for a closer look

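In each of 267 sets of 5 libraries (the 87 members and the 2 family shares of the counts, in 3 groups), the highest and lowest library was checked for a gap to its nearest neighbour of over 0.71 of the group's range (Dixon's 95% value). Chance flags about 1 in 20 such sets, and 15 were flagged, of which 14 follow, each for 1 library that stood far from the other 4 of its group. Values are TMM-scaled CPM.

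In NL-shGFP, where the other libraries lay close together, replicate 1 was low for Rpl18 (407, with its nearest neighbour at 470), Rpl27 (273), Rpl28 (400.4), Rpl39 (101) and Rps21 (169). NL-shGFP replicate 2 was high for Rpl31 (542) and Rplp1 (1575, with its nearest neighbour at 1271). NL-shGFP replicate 5 was high for Rpl23 (487), Rpl32 (732), Rps3a3 (22.1) and Rps10 (4.49, with its nearest neighbour at 3.01).

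In FL-shAlpl, replicate 1 was high for Rpl9 (329). In FL-shGFP, replicate 5 was high for Rps27 (247) and replicate 2 for Rps4l (29.99, with its nearest neighbour at 16.3). The Rps4l library is the one without which the fold change of Rps4l in FL-shAlpl over FL-shGFP changes sign.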

How the results depend on the processing

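In FL-shGFP over NL-shGFP, the count of members that fell (51) was 9 with totals alone, 80 with voom, 17 with limma-trend and 19 with close NL-shGFP libraries summed, and ran from 23 to 76 with 1 library left out (medians -0.68 to -0.41). In FL-shAlpl over FL-shGFP, the count that rose (72) was 35 with only the 2 groups compared and ran from 44 to 78 with 1 library left out (medians 0.54 to 0.80). In FL-shAlpl over NL-shGFP, the count that fell (1) was 0 with totals alone, limma-trend, close NL-shGFP libraries summed or pseudogene rows added, 3 with voom, and 0 to 1 with 1 library left out (medians 0.04 to 0.19). Scaling to the ribosomal protein sum sets the family's level by construction: 2 members rose and 2 fell (median 0.019), 0 rose and 2 fell (median -0.011), and 2 fell, in the 3 comparisons in this order, and turned Rpl7l1 (0.055), Rpl29 (0.020) and Rpl9 (0.20) in the first and Rpl9 (-0.057), Rpl7l1 (-0.017), Rpl23a (-0.027) and Rpl7 (-0.00172) in the second. Rps4l ran from -0.39 to 0.089 in FL-shAlpl over FL-shGFP with 1 library left out and was above 0 without FL-shGFP 2, and Rps10 turned to 0.24 in FL-shAlpl over NL-shGFP with pseudogene rows. The share of counts in NL-shGFP was 5.19% in place of 3.47% without mitochondrially encoded genes. Correlations of same-numbered deviations ran from -0.05 to 0.33, from -0.35 to 0.09 and from -0.15 to 0.08. The same number gave the best match for replicates 1, 2 and 5 in the first comparison. It did so for replicate 3 in the second, for 1 and 2 in the third, and not for the others. These values cannot exclude a partial pairing by replicate number, which the main model leaves out. With a replicate block 31 members fell, 51 rose and 0 fell in the 3 comparisons. Other than where stated, the cause of these moves was not tested. RLE and upper-quartile factors, DESeq2, other filters and no mitochondrially encoded genes gave 48 to 62, 64 to 76 and 1 in the 3 comparisons. For the 33 values of named members, 920 alternatives kept direction and call, 23 lost it, 5 gained one and 9 turned. Rps10, Rpl36al and Rps3a2 stood at about 1 to 2 CPM, and how far depth limits them was not tested.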
